A study of Sus scrofa with 2 samples.

Results

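Collagens are secreted or membrane-bound proteins built from 3 chains wound into a helix, and each chain is encoded by its own COL gene. Fibrillar collagens form the cables that carry tension, network collagens form sheets such as the basement membrane, FACIT collagens sit on the surface of fibrils, microfibril collagens form beaded filaments around cells, and transmembrane collagens stay anchored in the cell surface. In the gut wall, smooth muscle cells and fibroblasts are the main makers of interstitial collagen, and each smooth muscle cell is wrapped in a basement membrane.

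The genes described are those whose pig symbol has the form COL, a type number, the letter A and a chain number, after the table's gene identifiers were paired with symbols. There were 38 such genes among 25880 identifiers, 14857 of which had a symbol. Their levels were measured in PSI, a clone of smooth muscle cells from pig ileum cultured in DMEM that held 10% fetal bovine serum and 1% antibiotics. RNA-seq was done on 2 libraries of this single clone, which form 1 group, with no untreated, tissue or other-cell sample beside them. Nothing in the labels says that the libraries came from separate cultures, so the SD printed after a mean is the spread between these 2 libraries and may be technical.

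Levels are FPKM, fragments scaled to gene length in kilobases and to the library total, as deposited by the authors. Whole reads lie behind the values, and the totals worked out from them were 35176565 in replicate 1 and 32217729 in replicate 2, so a gene of 5 kb at 1 FPKM had about 176 and 161 reads. Read numbers given for a gene are the smallest that fit its values and may be a whole fraction of the true reads. A gene is called detected here at 1 FPKM or more in both libraries. Of the muscle markers checked, 6 of 7 were detected, where 61.5% of all identifiers with a symbol reached that level. ACTA2 was the highest, with 702 and 685 FPKM in replicates 1 and 2. The other detected ones had means of 479 FPKM for ACTG2, 254 for CNN1, 29.9 for MYLK, 5.46 for TAGLN and 2.90 for DES. MYH11, the smooth muscle myosin heavy chain, was not detected, with 0.461 and 0.522 FPKM. The epithelial, leukocyte and endothelial markers checked were listed at 0 in 7 of 8 cases, the other being EPCAM, with a single read in replicate 2. Of all 25880 identifiers, 16327 had reads in at least 1 library. All 3 fibroblast markers checked were detected, against the same 61.5%. Their levels were low, with a mean of 2.24 FPKM for PDGFRA, 2.20 for DCN and 1.63 for LUM. In a bulk library, fewer cells making a transcript and less transcript per cell cannot be told apart.

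The collagen chains of PSI ranged from among the most abundant transcripts of the table to genes listed at 0. At 100 FPKM or more in both libraries stood 12 chains, namely COL1A1, COL1A2, COL3A1, COL5A1, COL5A2, COL6A1, COL6A2, COL4A2, COL8A1, COL12A1, COL15A1 and COL18A1. Another 3 lay between 10 and 100 FPKM, 5 between 1 and 10, 12 above 0 and under 1, and 6 were listed at 0 in both libraries. Detected chains thus numbered 20 of 38, or 52.6%, against 40.9% of all identifiers and 61.5% of identifiers with a symbol, so the share of chains detected lay between the backgrounds. The median over the 38 chains was 1.68 on the log2(FPKM + 1) scale, against 0.22 over all identifiers and 2.29 over those with a symbol.

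**Figure D1:**
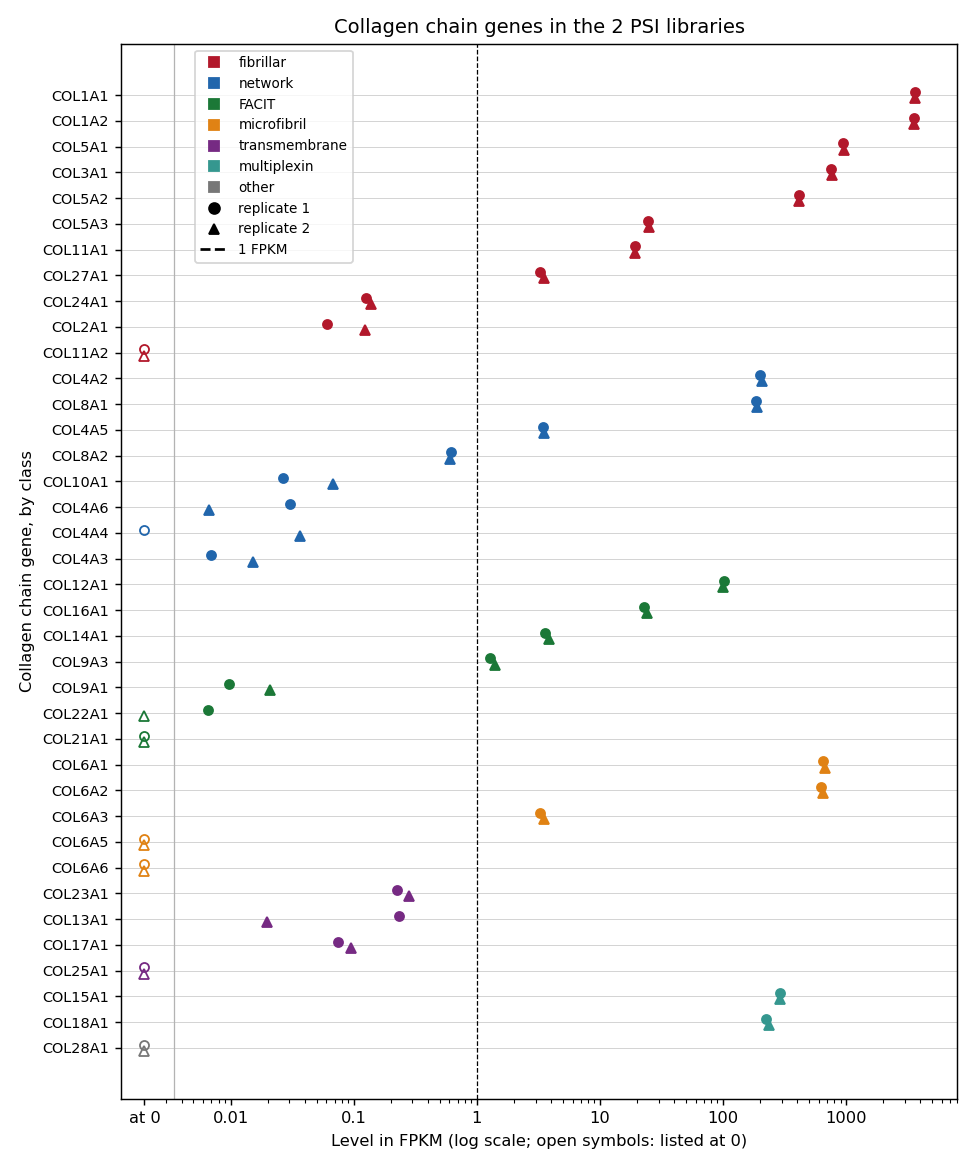
FPKM of each of the 38 measured collagen chains (log axis) in replicate 1 (circles) and replicate 2 (triangles), coloured by class, with chains listed at 0 as open symbols at the left and a dashed line at 1 FPKM. In the fibrillar, network, FACIT and microfibril classes the chains spread from over 100 FPKM down to 0 or near 0, the 2 multiplexin chains lie above 200 FPKM, and the 4 transmembrane chains lie left of the line.

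The most abundant chains lay close to the top of the whole table. COL1A1 and COL1A2 ranked 7 and 8 of 25880 identifiers by mean FPKM, and 7 chains were among the 100 highest and 11 among the 500 highest. Together the 38 chains accounted for 3.14% of all FPKM in replicate 1 and 3.20% in replicate 2. Long transcripts collect more reads at a given FPKM, and the same chains held 6.78% and 6.88% of the recovered reads. COL1A1 and COL1A2 alone were 61.5% and 61.2% of the collagen FPKM in replicates 1 and 2, and the 12 highest chains were 99.3% of it in each.

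**Figure D2:**
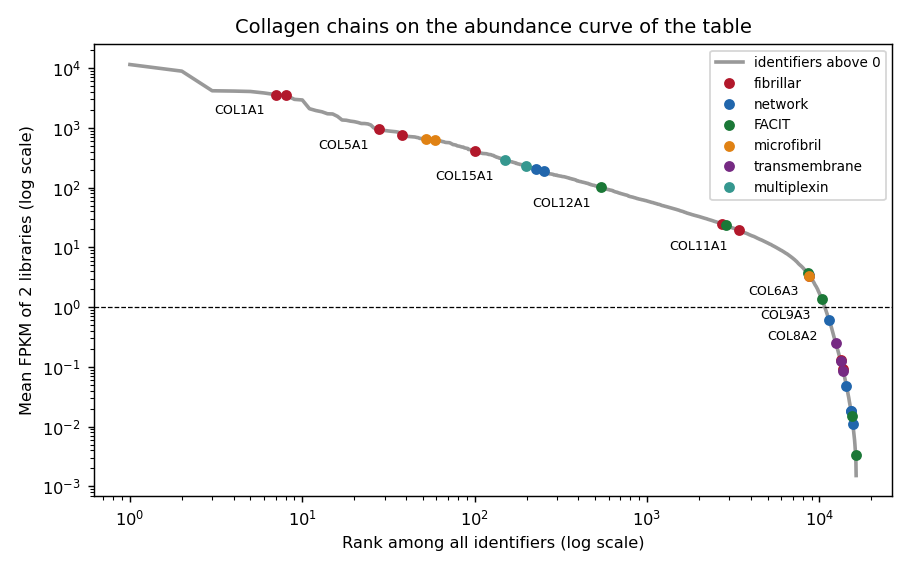
Mean FPKM of both libraries (log axis) against rank (log axis) for all identifiers above 0 (grey line), with the collagen chains above 0 as points coloured by class and the dashed line at 1 FPKM. COL1A1 and COL1A2 sit at ranks 7 and 8, COL12A1 at rank 542, and no chain lies between COL12A1 at 102 FPKM and COL5A3 at 24.9 FPKM.

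Fibrillar chains made up 80.1% and 79.8% of the collagen FPKM in replicates 1 and 2, and 8 of the 11 were detected. COL1A1, which encodes the main chain of type I collagen, had 3588 and 3629 FPKM in replicates 1 and 2 (796231 and 737584 reads). COL1A2, its partner in the type I trimer, had 3540.0 and 3569 FPKM in replicates 1 and 2. COL3A1, which forms the type III homotrimer of distensible organs such as gut and vessels, had 757 and 768 FPKM. The libraries thus differed by about 1% in each of these chains, and type III mRNA stood well below type I mRNA. RefSeq places COL1A1 (ENSSSCG00000036135 in the table) on chromosome 12 from 26379087 to 26397180 and COL1A2 (ENSSSCG00000015326) on chromosome 9 from 74174484 to 74210407 of Sscrofa11.1.

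Type V collagen starts type I fibrils and limits their width, and its chain genes were also abundant. COL5A1 had 935 and 957 FPKM in replicates 1 and 2 and ranked 28 in the table. COL5A2 had 410.4 and 415 FPKM, and COL5A3, the chain of a less widespread type V trimer, had 24.8 and 25.0. The order COL5A1, COL5A2, COL5A3 was the same in both libraries, with gaps far wider than the difference between libraries. COL5A1 also exceeded COL3A1 in each library.

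The remaining fibrillar chains were much lower. COL11A1, best known from cartilage and able to join type V chains in fibrils, had 19.4 and 19.3 FPKM in replicates 1 and 2 from 4285 and 3889 reads. COL27A1, a minor fibrillar collagen of growing cartilage, had 3.29 and 3.48 FPKM. COL24A1 had 0.126 and 0.138 FPKM from 3 reads in each library. Of these, only COL11A1 exceeded 10 FPKM. COL2A1, the main collagen of cartilage, had 0.0610 and 0.124 FPKM in replicates 1 and 2 (7 and 13 reads), and COL11A2, the type XI partner of COL11A1, was listed at 0 in both. The cartilage markers checked were also low, with ACAN, the cartilage proteoglycan aggrecan, listed at 0 and MATN3 at 0.272 and 0.297 FPKM. SOX9, the cartilage transcription factor, was detected, at 1.41 and 1.43 FPKM.

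Microfibril chains were the next largest class, with 10.99% and 11.2% of the collagen FPKM in replicates 1 and 2. Type VI collagen assembles from an alpha1 chain, an alpha2 chain and a partner encoded by COL6A3, COL6A5 or COL6A6. COL6A1 (ENSSSCG00000022506) had 648 and 666 FPKM in replicates 1 and 2, and COL6A2 (ENSSSCG00000028022) had 621 and 651. COL6A3 had 3.28 and 3.49 FPKM, from 916 and 893 reads. COL6A5 and COL6A6 were listed at 0 in both libraries. Thus the alpha1 and alpha2 chains were abundant and nearly level, and each gene for their partner was low or at 0.

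COL6A3 differed between the libraries by 1.06-fold (adjusted p = 0.768 by an exact binomial test on recovered reads). No other RefSeq gene overlaps COL6A3 on chromosome 15 from 137011549 to 137103687. Its identifier, ENSSSCG00000027331, was paired with the symbol by table only, as for every chain here, and that pairing was not checked by position.

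Network chains held 3.35% and 3.41% of the collagen FPKM in replicates 1 and 2, and 3 of the 8 measured were detected. COL4A2, a chain of the basement membrane found around most cells, had 198 and 207 FPKM from 73159 and 70013 reads. COL4A5, a basement membrane chain of kidney, skin and smooth muscle, had 3.43 and 3.52 FPKM. COL4A6, which assembles with COL4A5 around smooth muscle, had 5 reads in replicate 1 and 1 in replicate 2. The kidney and lung chains COL4A3 and COL4A4 had at most 2 reads in either library. Among the measured type IV chains, COL4A2 was therefore abundant, COL4A5 low and the other 3 near 0. The identifier paired with COL4A1, the obligate partner of COL4A2, has no row among those analysed here.

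The short-chain network genes were as unequal. COL8A1, a type VIII chain of vessel walls and of the membrane behind the cornea, had 185 and 190 FPKM in replicates 1 and 2, close to COL4A2. COL8A2, the other type VIII chain, had 0.613 and 0.607 FPKM from 139 and 126 reads. COL10A1, the marker collagen of hypertrophic cartilage, had 0.0267 and 0.0680 FPKM from 3 and 7 reads, and its RefSeq model lies inside that of NT5DC1. COL8A1 was thus the only one of these 3 genes above 1 FPKM.

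Multiplexins are basement-membrane-associated collagens that also carry glycosaminoglycan chains, and both were abundant. COL15A1 had 289 FPKM in each library, with a coefficient of variation of 0.139%, the lowest among the 20 detected chains. COL18A1, the source of the fragment endostatin, had 224 FPKM in replicate 1 and 235 in replicate 2. They held 4.43% and 4.46% of the collagen FPKM in replicates 1 and 2, above the 8 measured network chains, a sum that lacks COL4A1. By recovered reads the order turned, with 3.44% and 3.46% for the multiplexins and 5.004% and 5.12% for the network chains. Recovered reads may be a whole fraction of the true reads, so this order by reads is uncertain. RefSeq places COL15A1 on chromosome 1 from 240718128 to 240829188 and COL18A1 on chromosome 13 from 207907835 to 207984082.

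FACIT chains held 1.13% and 1.11% of the collagen FPKM in replicates 1 and 2, and 4 of the 7 measured were detected. COL12A1, which binds type I fibrils in tissues under load, had 103 FPKM in replicate 1 and 100.7 in replicate 2. COL16A1, a FACIT made by fibroblasts and smooth muscle cells, had 23.0 and 24.1 FPKM. COL14A1, the close relative of COL12A1, had 3.55 and 3.86 FPKM. COL12A1 was thus the dominant FACIT gene in both libraries. COL9A3, a chain of the cartilage collagen type IX, had 1.29 and 1.41 FPKM from 67 reads in each library, and its RefSeq model shares 323 bp with TCFL5. COL9A1, another type IX chain, had 1 read in replicate 1 and 2 in replicate 2, COL22A1, a collagen of tissue junctions, had 1 read in replicate 1 and none in replicate 2, and COL21A1 was listed at 0 in both.

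No transmembrane chain was detected, and together the 4 measured had 0.535 and 0.396 FPKM in replicates 1 and 2. COL23A1 was the highest by mean, with 0.227 and 0.281 FPKM from 45 and 51 reads. COL13A1, known from the neuromuscular junction, had 13 reads in replicate 1 and 1 in replicate 2. COL17A1, the collagen of epithelial hemidesmosomes, had 17 and 20 reads. COL25A1, a collagen of neurons and developing muscle, was listed at 0, as was COL28A1, the collagen of peripheral nerve and the only measured chain outside the classes above. The chains measured in this class therefore contributed almost no reads to either library.

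**Figure D3:**
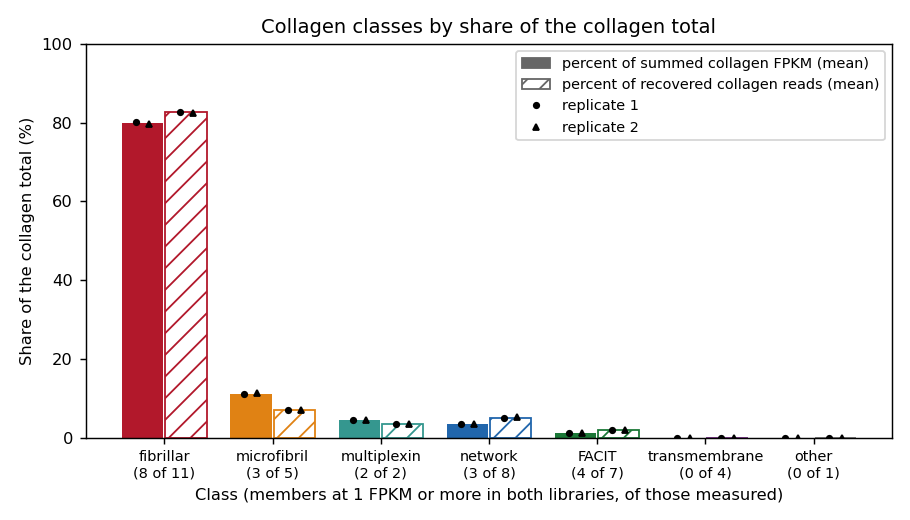
Share of the collagen total by class, as percent of summed collagen FPKM (solid bars) and of recovered collagen reads (hatched bars), each bar the mean of the 2 libraries with replicate 1 as a circle and replicate 2 as a triangle, and with the detected and measured members under each class name. Fibrillar chains hold about 80% of the FPKM, and network chains hold a larger share of reads (5.004% and 5.12% in replicates 1 and 2) than of FPKM, whereas microfibril chains hold a smaller one (6.90% and 7.04%).

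Chains that assemble together were then set against each other, along with some pairs across types or of alternative chains of 1 type. FPKM is per length, so its ratio compares transcripts of unequal length, but a wrong gene model shifts it. Of 18 pairs listed, 9 gave a ratio, and the others had a chain that was not measured (3), at 0 (4) or under 10 reads (2). COL1A2 over COL1A1 was 0.987 in replicate 1 and 0.984 in replicate 2, or 0.985 ± 0.00222 (SD, n = 2). COL6A2 over COL6A1 was 0.958 and 0.978, or 0.968 ± 0.0137 (SD, n = 2). Both pairs were thus nearly level, although the type I protein holds more alpha1 than alpha2 chains and the type VI protein equal numbers. By recovered reads with no length correction the ratios were 0.737 for the type I pair and 0.740 for the type VI pair.

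The other partner pairs were unequal by amounts that both libraries shared. COL5A2 over COL5A1 was 0.436 ± 0.00386 (SD, n = 2), where the main type V trimer holds more alpha1 than alpha2 chains, and COL5A3 over COL5A1 was 0.0263 ± 0.000253. COL11A1 over COL5A1 was 0.0204 ± 0.000461. Type V and type XI chains other than COL5A1 and COL5A2 were thus a small part of the fibril-starting chains. COL6A3 over COL6A1 was 0.00505 in replicate 1 and 0.00523 in replicate 2, which put COL6A1 194 ± 4.86 times above COL6A3 (SD, n = 2), and by recovered reads with no length correction the ratio was 0.0107 and 0.0111. COL8A2 over COL8A1 was 0.00332 and 0.00320, which put COL8A1 307 ± 7.96 times above COL8A2, a ratio that was 0.00855 after adding 1 FPKM to both chains. Across types, COL3A1 over COL1A1 was 0.211 ± 0.000362 and COL5A1 over COL1A1 was 0.262 ± 0.00212.

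**Figure D4:**
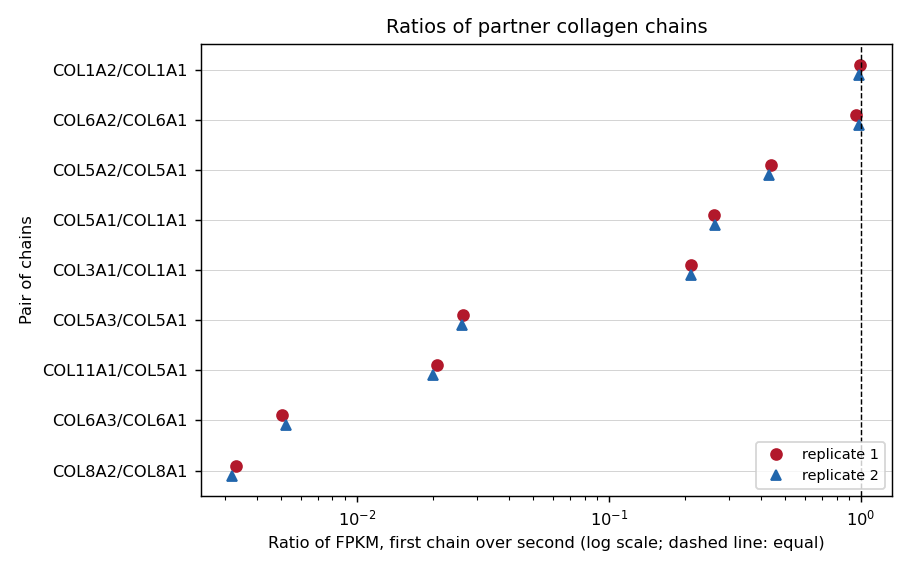
Ratio of FPKM of the first chain over the second (log axis) for the 9 pairs with at least 10 reads in each chain and library, in replicate 1 (circles) and replicate 2 (triangles), with a dashed line at equal levels. The type I and type VI alpha2 over alpha1 pairs lie at the line, the type V pair at 0.436, and COL6A3/COL6A1 and COL8A2/COL8A1 lie under 0.01 with the libraries nearly on top of each other.

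Several collagen genes are neighbours on the RefSeq map, here less than 200 kb apart, and their levels were compared where both were measured. COL3A1 and COL5A2 lie 16.2 kb apart on chromosome 15, from 93556914 to 93595678 and from 93611856 to 93981131, and had 763 ± 7.43 and 413 ± 2.99 FPKM (SD, n = 2). COL4A4 and COL4A3 overlap by 663 bp on chromosome 15, and both were near 0. COL6A6 and COL6A5, 43.6 kb apart on chromosome 13, were both listed at 0. In these 3 pairs the neighbours were both abundant or both near 0. COL4A6 and COL4A5 lie just past the 200 kb limit on chromosome X, from 88634925 to 88750938 and from 88958837 to 89183306. Their levels were unlike, with means of 0.0186 FPKM for COL4A6 and 3.48 FPKM for COL4A5. COL4A1 overlaps COL4A2 by 525 bp on chromosome 11, and COL19A1 lies 1.10 kb from COL9A1 on chromosome 1, but neither COL4A1 nor COL19A1 has a value here.

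The libraries were close for most chains, and the abundant chains leaned towards replicate 2. Among the 20 detected chains the coefficient of variation ran from 0.139% to 6.21% with a median of 1.80%, against a median of 2.57% over all detected identifiers. These sets were not matched for read number or level, so the medians are not like for like. Of the 20, 18 were higher in replicate 2, against 52.5% of all detected identifiers, and COL11A1 and COL12A1 were the exceptions. An exact binomial test on the recovered reads, two-sided and Benjamini-Hochberg adjusted over 16327 identifiers, called 7 of the 32 chains with reads, all higher in replicate 2, where 0.57% of all identifiers were called in that direction and 1.11% in either. The 7 were COL4A2, COL6A2, COL1A1, COL5A1, COL18A1, COL6A1 and COL1A2. It sets library against library, and no condition.

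The called differences were small in size. They ran from 0.820% for COL1A2 (adjusted p = 0.00372 by the exact binomial test) to 5.02% for COL18A1 (adjusted p = 1.26e-05), with COL4A2 at 2.1e-13 and COL1A1 at 2.51e-09. All 7 were among the 12 chains with 10000 or more reads in both libraries, a bound chosen after the values were seen. At that depth 58.3% of the chains were called, against 69 of 427 identifiers, or 16.2%. Whether read number accounts for the calls was not tested. COL3A1 and COL8A1 just missed the threshold, with adjusted p of 0.0527 and 0.0545 by the same exact test.

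**Figure D5:**
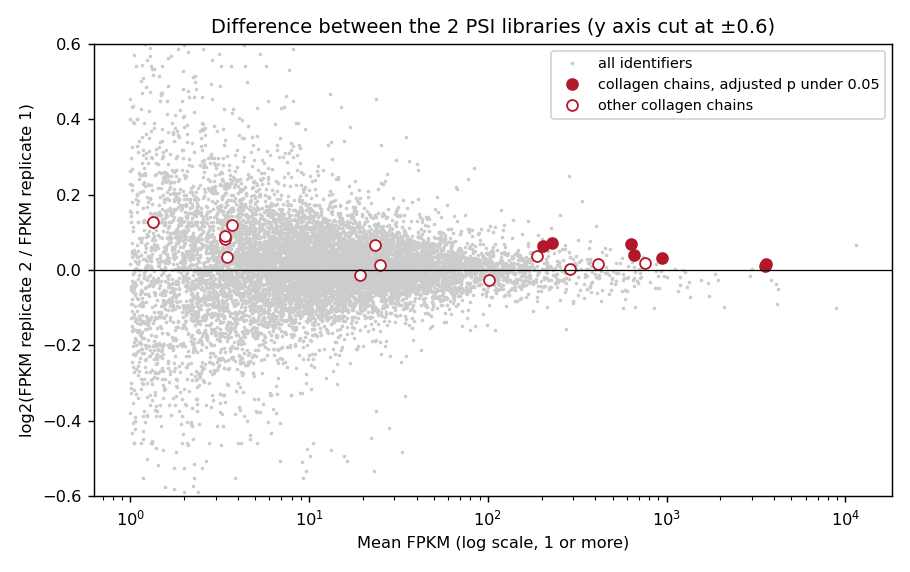
log2 of FPKM in replicate 2 over replicate 1 against mean FPKM (log axis) for identifiers with a mean of 1 FPKM or more (grey), with the 7 collagen chains called by the exact binomial test filled and the other 13 detected chains open. The filled points all lie above 0 and above 200 FPKM, and of the open points only COL11A1 and COL12A1 lie below 0.

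Collagen chains need a set of enzymes and chaperones before and after secretion, and of 20 such genes all 18 measured were detected. Their median was 5.86 on the log2(FPKM + 1) scale. Over all identifiers with a symbol, 61.5% were detected and the median was 2.29. SERPINH1, the collagen chaperone HSP47, had 655 and 672 FPKM in replicates 1 and 2. P4HB, a subunit of prolyl hydroxylase, had 455 and 467 FPKM, BMP1, the protease that removes the C-terminal propeptide of fibrillar collagens, had 176 and 178, and LOX, the cross-linking oxidase, had 161 and 164. These were the highest 4, and the lowest was ADAMTS14, a protease of the N-terminal propeptide, at 6.57 and 6.52 FPKM. CRTAP and COLGALT1 lacked a paired identifier and were not analysed here.

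Receptors for collagen were all detected, 8 of 8, against 61.5% of identifiers with a symbol. Their median was 3.91 on the log2(FPKM + 1) scale, against 2.29 over those identifiers. ITGB1, the beta subunit shared by the collagen-binding integrins and many others, had 644 and 656 FPKM in replicates 1 and 2. MRC2, an endocytic receptor that takes up collagen, had 128 and 132 FPKM, DDR2, a receptor kinase for fibrillar collagen, had 21.8 and 22.2, and ITGA1, an alpha subunit favouring basement membrane collagen, had 15.9 and 16.8. The alpha subunit ITGA10, known from cartilage, was the lowest, with 2.92 and 3.09 FPKM. Each collagen-binding alpha subunit thus lay far below the shared beta subunit.

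Of the 44 chains in the fixed classes, 6 had no value here. COL4A1 and COL19A1 are paired with identifiers that have no row among those analysed, and COL7A1, the anchoring fibril collagen, COL9A2, COL20A1 and COL26A1 had no paired identifier. Another RefSeq gene model overlaps 15 of the 36 measured chains with a position on an assembled chromosome, 8 of them detected, and reads in an overlap may be lost or assigned to either gene. The detected ones are COL5A2, COL5A3, COL11A1, COL27A1, COL4A2, COL8A1, COL9A3 and COL14A1.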

How the data were processed

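RNA-seq of 2 libraries of the PSI clone was analysed as 1 group. TRIzol RNA and NEBNext Ultra libraries were used, per the labels' protocols. Alignment and counting tools in the submitters' processing notes are TopHat2 2.0.12 and HTSeq 0.6.1, with build Sscrofa11.1. Annotation release, strand setting and filters are unknown, being not given in the sources used here. As their table, the authors deposited FPKM values, with replicates not pooled.

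Because FPKM moves in steps of whole reads, reads were worked out per identifier as those at the smallest length between 50 and 30000 bp giving whole numbers in both libraries (tolerance 1.2 times the rounding). All 16327 identifiers above 0 fitted, and recovered reads summed to 90.8% of each total. They are the smallest that fit and may be a whole fraction of the true reads, and the same holds for lengths. Recovery and test were tested on simulated data. Reads are not independent molecules, so the test covers counting error only. No limit is given for genes at 0, since no length can be recovered for them.

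Symbols came from a gene name table. RefSeq positions, Sscrofa11.1, were joined by symbol. Means are ± SD, n = 2, and the pseudocount was 1. Without a second group, no test between conditions was possible. Every measured member was accounted for. Of the maturation and receptor lists, the 4 highest, the members under 1 FPKM (none) and, added after values were seen, the lowest were named. Marker lists for smooth muscle, epithelium, leukocyte, endothelium, cartilage and fibroblast are given in the report. Members and lists were chosen with earlier results of these data known. Python 3.11.15, scipy 1.17.1 and statsmodels 0.14.6 were used.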

Additional observations from a re-analysis of the deposited data

How the results depend on the processing

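With 2 libraries, leaving out either gives the value of the other, which says nothing about stability, and the test between libraries needs both. Detected chains numbered 20 without replicate 1 and without replicate 2, 23 at a detection level of 0.1 FPKM and 15 at 5 FPKM. The median over chains was 1.17 with a pseudocount of 0.1 FPKM, 5.69 among chains averaging at least 0.1 FPKM and 2.78 in TPM, where that over all identifiers was -2.00, 3.01 and 0.52. The median lies between COL9A3 and COL6A3, which are far apart, so it moves with the choice of members. The collagen share was 6.83% of recovered reads and 3.36% of FPKM without mitochondrially encoded genes. By share of collagen reads in place of FPKM, fibrillar chains held 82.7%, network 5.06%, FACIT 1.83%, microfibril 6.97% and multiplexin 3.45%, and the transmembrane share was 0 among chains of 1 FPKM or more, since none reaches it. Ratios of recovered reads with no length correction were 0.737 for COL1A2/COL1A1, 0.161 for COL3A1/COL1A1, 0.229 for COL5A1/COL1A1, 0.4998 for COL5A2/COL5A1, 0.0299 for COL5A3/COL5A1, 0.0232 for COL11A1/COL5A1, 0.740 for COL6A2/COL6A1, 0.0109 for COL6A3/COL6A1 and 0.00397 for COL8A2/COL8A1. After adding 1 FPKM, COL5A3/COL5A1 was 0.0273, COL11A1/COL5A1 0.0215, COL6A3/COL6A1 0.00666 and COL8A2/COL8A1 0.00855. No ratio crossed 1 under these settings. With the expected share taken from the median ratio of genes, 6 chains were called between libraries, without COL1A2 (adjusted p = 0.0867 by the exact binomial test), and 9 were called among identifiers of 10 or more reads, where 171 and 220 of all identifiers were called, against 182 in the report's test. Pairing symbols by the name table alone was not run as a separate setting, since the RefSeq table holds no identifiers of this kind and the name table was the only source. No paired analysis was possible because there is 1 group. Depth limits the chains under 10 reads, whose order is not resolved.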
